A study of Homo sapiens with 4 samples.

Results

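MCM3, MCM2, CDC45, TOPBP1 and BRCA1 are 5 genes of DNA replication and repair, and they are described here as 5 of the 9667 genes in a FLASH-seq data set of CFAP20, a protein best known from cilia and flagella. They were chosen by name, with their signal in the libraries with and without tagged CFAP20 already known, so the difference between those libraries is a description for these genes and was not tested. FLASH-seq crosslinks RNA to protein with UV-C light, captures a biotin-tagged protein on streptavidin beads, trims the bound RNA with RNase I and sequences what is left. The study asked whether CFAP20 binds RNA. There were 2 tagged-CFAP20 libraries, from RPE1 iCas9 p53/puro-dKO cells without their own CFAP20 that expressed FLASH-BIO-CFAP20. Another 2 libraries, CFAP20-KO, were made from these cells without the tagged protein and served as the negative control for capture. Both groups therefore lacked p53 and the cells' own CFAP20, and RPE1 is an immortalised human retinal pigment epithelial line. Nothing in the labels says whether the replicates came from separate cultures, so a p-value here measures at most spread among libraries that may be technical replicates. Where a test pools the reads of a group, its p-value covers counting error only.

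The proteins of these genes act at successive steps of copying DNA. MCM2 and MCM3 are subunits of the ring-shaped MCM complex, which is loaded on origins and becomes the motor of the replicative helicase. CDC45 joins that ring, together with GINS, to form the active helicase. TOPBP1 is a scaffold of BRCT domains that is needed to bring CDC45 to the origin and that also activates the checkpoint kinase ATR when forks stall. BRCA1 is a ubiquitin ligase that promotes homologous recombination and protects stalled forks. Dividing cells express all of these genes, with transcription rising towards S phase.

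To show where reads were recovered, the 200-bp bin with the most signal in tagged-CFAP20 is printed for each gene, on the gene's strand and 5′ to 3′. Signal is not split by strand, so the strand of the recovered RNA is not shown. Sequences are from the hg38 assembly, and capitals mark the bases of exons in the GENCODE canonical transcript. Each of these bins held coding exon sequence and no UTR base, and each had 0 signal in both CFAP20-KO libraries. The MCM3 bin (chr6:52267852-52268051, minus strand) covered exon 14 whole, with 104 exon bases. The MCM2 bin (chr3:127620723-127620922, plus strand) held 158 bases of exon 14 and the start of intron 14. The CDC45 bin (chr22:19483759-19483958, plus strand) held the end of intron 4 and 97 bases of exon 5, and the next bin had the same signal. The TOPBP1 bin (chr3:133617194-133617393, minus strand) held the end of intron 21 and 133 bases of exon 22. The BRCA1 bin (chr17:43070984-43071183, minus strand) lay within exon 15, with 200 exon bases.
MCM3: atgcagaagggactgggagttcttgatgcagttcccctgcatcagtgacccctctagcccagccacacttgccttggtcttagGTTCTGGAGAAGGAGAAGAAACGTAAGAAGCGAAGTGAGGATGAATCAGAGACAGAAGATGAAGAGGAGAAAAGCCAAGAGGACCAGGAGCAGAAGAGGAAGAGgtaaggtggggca
MCM2: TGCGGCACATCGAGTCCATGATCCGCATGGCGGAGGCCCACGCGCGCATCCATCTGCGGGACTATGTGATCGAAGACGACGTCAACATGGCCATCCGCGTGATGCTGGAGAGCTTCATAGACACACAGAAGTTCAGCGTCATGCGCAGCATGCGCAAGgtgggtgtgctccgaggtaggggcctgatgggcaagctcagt
CDC45: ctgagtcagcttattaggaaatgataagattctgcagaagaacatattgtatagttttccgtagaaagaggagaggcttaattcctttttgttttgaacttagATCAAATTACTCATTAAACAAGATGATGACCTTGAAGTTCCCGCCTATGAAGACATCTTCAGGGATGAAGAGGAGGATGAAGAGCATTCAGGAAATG
TOPBP1: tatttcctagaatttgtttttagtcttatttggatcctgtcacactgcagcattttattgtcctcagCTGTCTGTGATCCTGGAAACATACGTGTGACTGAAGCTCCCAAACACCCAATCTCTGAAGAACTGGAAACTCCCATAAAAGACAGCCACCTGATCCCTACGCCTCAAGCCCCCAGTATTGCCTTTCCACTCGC
BRCA1: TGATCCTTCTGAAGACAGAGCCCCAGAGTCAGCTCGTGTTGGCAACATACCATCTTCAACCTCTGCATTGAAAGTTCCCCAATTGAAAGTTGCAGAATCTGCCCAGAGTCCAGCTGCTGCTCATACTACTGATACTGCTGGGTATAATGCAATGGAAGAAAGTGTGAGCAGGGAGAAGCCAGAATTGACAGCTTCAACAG

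The libraries differed in depth. A value in the tables is a whole multiple of 1 step, taken as 1 read overlapping a 200-bp bin, and the step was worth 12.85 and 13.93 units of signal in tagged-CFAP20 replicates 1 and 2, against 83.0 and 276.88 in CFAP20-KO replicates 1 and 2. Genes held 165189 and 134891 such read overlaps in tagged-CFAP20, against 9146 and 3908 in CFAP20-KO, and 1 read spanned 1.38 bins on average. Signal above 0 was present on 5212 and 5092 genes in tagged-CFAP20, against 2361 and 1479 genes in CFAP20-KO. A gene at 0 in both CFAP20-KO libraries is therefore only below a floor of 264.0 units, the signal of 3 reads pooled over both. Of the pigment epithelium markers, RPE65, RLBP1, MITF and OTX2 were in the tables and 4 of 4 had reads in tagged-CFAP20, against 1 of 4 in CFAP20-KO. CD3E, which marks T cells, was at 0 in the 4 libraries, and the blood gene SPI1 had 13.9 units in 1 tagged-CFAP20 library. The neuron markers SNAP25 and STMN2 together had 167 and 209 units in tagged-CFAP20, against 0 in both CFAP20-KO libraries, and COL1A1, a mesenchymal marker, had 4229 and 2452, against 1992 and 2769. Their part in the results was not tested.

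Signal was summed from each gene's start to its end. MCM3 (chr6:52264009-52284751, minus strand, 17 exons) had 951.1 and 905.7 units in the tagged-CFAP20 replicates, from 74 and 65 read overlaps, and was listed in neither CFAP20-KO table, which was taken as 0. Its tagged-CFAP20 mean of 928.4 ± 32.2 (SD, n = 2) was 3.52 times the floor. MCM3 was the shortest of the 5 genes and had the narrowest spread between its tagged-CFAP20 libraries. MCM2 (chr3:127598223-127622436, plus strand, 16 exons) had 334 and 237 units in tagged-CFAP20, from 26 and 17 overlaps, against 0 and 277 in CFAP20-KO, where the 277 was 1 overlap in replicate 2. Its groups overlapped, because that CFAP20-KO value lay between the 2 tagged-CFAP20 values. The means of 286 ± 68.8 in tagged-CFAP20 and 138 ± 196 in CFAP20-KO (SD over the 2 libraries of each group) differed by a ratio of 2.06. Without CFAP20-KO replicate 1 the ratio was 1.03, and without replicate 2 the CFAP20-KO value was 0. With each library scaled to the same window total it was 1.11.

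CDC45 (chr22:19479459-19520612, plus strand, 19 exons), the helicase activator, had 835.5 and 696.7 units in tagged-CFAP20, from 65 and 50 overlaps, against 0 and 277 in CFAP20-KO. Both tagged-CFAP20 libraries were above both CFAP20-KO libraries, and the means of 766.1 ± 98.1 in tagged-CFAP20 and 138 ± 196 in CFAP20-KO (SD over the 2 libraries of each group) gave a ratio of 5.53, which was 2.77 without CFAP20-KO replicate 1 and 2.99 at the same window total. The CFAP20-KO value again came from 1 overlap in replicate 2, which lay in intron 18, whereas the overlap in MCM2 lay in exon 16.

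TOPBP1 (chr3:133600573-133661893, minus strand, 28 exons), the ATR activator, had the most signal of the 5 genes. It reached 1671 and 1435 units in tagged-CFAP20, from 130 and 103 overlaps, against 0 in both CFAP20-KO libraries. The mean of 1553 ± 167 (SD, n = 2) was 5.88 times the floor and ranked 242 among all 9667 genes. BRCA1 (chr17:43045629-43125483, minus strand, 23 exons), the longest of the 5, had 938.3 and 752.4 units in tagged-CFAP20, from 73 and 54 overlaps, against 0 in both CFAP20-KO libraries. Its mean of 845.3 ± 131 (SD, n = 2) was 3.20 times the floor. For TOPBP1, BRCA1 and MCM3 no CFAP20-KO library held a read, so both groups were apart but the size of the gap is known only as a lower bound.

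**Figure D1:**
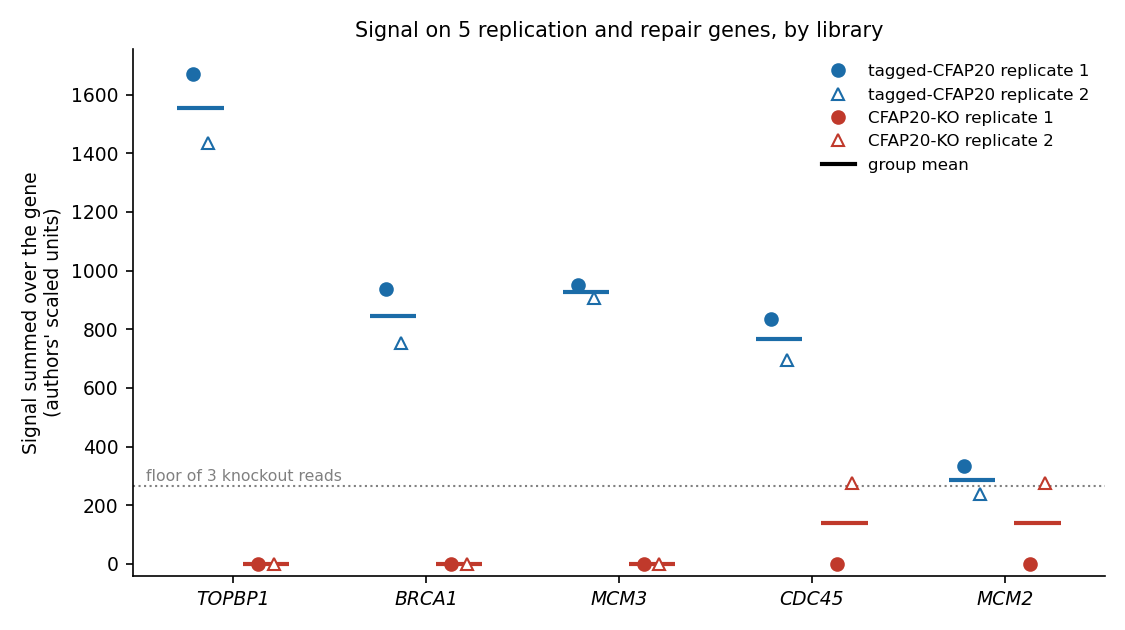
Signal summed over each gene (vertical axis, the authors' scaled units) in each library, with tagged-CFAP20 in blue left of CFAP20-KO in red, points for libraries, bars for means and a dotted line at the floor of 264.0 units. The tagged-CFAP20 points lie far above the CFAP20-KO points for TOPBP1, BRCA1, MCM3 and CDC45, and the groups overlap for MCM2.

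Divided by gene length, the order changed. The tagged-CFAP20 level was 44.8 ± 1.55 units per kb for MCM3 and 25.3 ± 2.72 for TOPBP1. It was 18.6 ± 2.38 units per kb for CDC45, 11.8 ± 2.84 for MCM2 and 10.6 ± 1.65 for BRCA1 (SD, n = 2 each). MCM2 and BRCA1 did not differ beyond their spread on this scale, and the lowest TOPBP1 library (23.4 units per kb) was above the highest CDC45 library (20.3). Of the helicase subunits, MCM3 thus stood at the top of the order and MCM2 near the bottom. Signal is not split by strand, and reads of other annotated genes in the same place are mixed in: RPL21P4, a pseudogene, for BRCA1, the noncoding ENSG00000287652 for CDC45, and TPRA1 and the noncoding ENSG00000285600 for MCM2. No other gene is annotated within TOPBP1 or MCM3.

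The shallow CFAP20-KO libraries limit what a 0 can show. If CFAP20-KO had carried the same signal per gene as tagged-CFAP20, its libraries would together have held 24.3 overlaps on TOPBP1, 14.5 on MCM3, 13.2 on BRCA1, 12 on CDC45 and 4.47 on MCM2. With an equal share of each library's gene signal in place of equal signal, these numbers were 10.1, 6.07, 5.50, 4.99 and 1.85. Over the 5 genes CFAP20-KO held 2 overlaps, against 68.6 at equal signal and 28.5 at equal share. The genes were chosen with these values known, so the shortfall is a description and not a test. For MCM2 alone, the 1 overlap found was close to the 1.85 of an equal share. Summed over the 5 genes, signal was 4378 ± 497 in tagged-CFAP20 and 277 ± 391.6 in CFAP20-KO (SD over 2 libraries each), a ratio of 15.8, and the sum over all genes had a ratio of 2.17. The CFAP20-KO sum rests on 2 overlaps in replicate 2, so the ratio was 7.91 without CFAP20-KO replicate 1 and had no finite value without replicate 2, and it was 8.55 with each library scaled to the same window total. As a share of all gene signal, the 5 genes took 0.223% and 0.214% in tagged-CFAP20, against 0% and 0.0512% in CFAP20-KO. In bulk libraries, fewer cells with an RNA and less of it per cell cannot be told apart, and neither can more binding from more of the RNA.

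In the fit over all genes (limma on log2(signal + 10), Benjamini-Hochberg adjustment, threshold 0.05), 37.6% of the 4461 genes tested were called higher in tagged-CFAP20 and 0.0672% lower. TOPBP1, BRCA1 and MCM3 were among the genes called, and CDC45 and MCM2 were not. The same 3 genes of the 5 were called by an exact binomial test of pooled reads on the deposited scale, which called 8.26% of 3668 genes higher and 0.0545% lower. Relative to shares of gene signal the exact test called none of the 5, against 0.109% of 3668 genes higher and 0.245% lower. There the adjusted p was 0.189 for TOPBP1, 0.521 for MCM3 and 0.644 for BRCA1. The values of this contrast chose the 5 genes, so their calls support nothing. Of all genes tested in limma, 69.4% had both tagged-CFAP20 libraries above both CFAP20-KO libraries, as did 4 of the 5 genes here. Of the same genes, 40.3% had reads in both tagged-CFAP20 libraries and 0 in both CFAP20-KO libraries, as did TOPBP1, BRCA1 and MCM3. Of the 1678 genes that limma called higher, 1589 were at 0 in both CFAP20-KO libraries, where the fitted change follows the added 10 units. The number called was 0 without either tagged-CFAP20 library, 3256 without CFAP20-KO replicate 1 and 3049 without CFAP20-KO replicate 2.

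Position along the genes was not used to choose them. In tagged-CFAP20 the reads lay in bins that hold an exon more often than the share of such bins would give. This held in each of the 5 genes and in both libraries. Pooled over the genes, 54.1% and 57.8% of overlaps fell in bins that hold at least 1 exon base, a mean of 55.9% ± 2.62 (SD, n = 2), while 16.4% of the bins hold one. That is a ratio of 3.41. Counting only bins with exon on most of their length, 31.9% ± 2.10 of overlaps fell in 7.73% of bins, a ratio of 4.13.

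MCM3 had 47.3% and 58.5% of its overlaps in exon bins, which make up 27.9% of the gene, and MCM2 had 57.7% and 64.7% in exon bins that also make up 27.9%. CDC45 had 43.1% and 56.0%, against 13.1% of its bins. In bins with exon on most of their length CDC45 had only 6.15% and 4% of its overlaps, against 1.94% of its bins. TOPBP1 had 64.6% and 63.1%, against 15.6% of its bins, and BRCA1 had 50.7% and 46.3%, against 12.2%. For bins with any exon base, the exact (Clopper-Pearson) 95% intervals of the overlap shares lay above the share of bins in 10 of 10 cases. The closest was MCM3 replicate 1 with 33.3% to 61.4%. These intervals allow for reads that span bins and cover counting error only. The 1 read overlap of MCM2 in CFAP20-KO was in an exon bin and that of CDC45 was not, so an exon share cannot be compared between the groups.

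The share and the ratio gave different orders among the genes. By the ratio of overlaps to bins, TOPBP1 (4.08), BRCA1 (3.96) and CDC45 (3.78), whose exons are spread over long introns, stood above MCM2 (2.20) and MCM3 (1.90). Of all genes, 1696 had at least 20 overlaps in each tagged-CFAP20 library, and 54.4% of these were in the same range of lengths (20.7 to 79.9 kb). Among those genes of like length the median share in exon bins was 42.9% (quartiles 30.4% and 54.3%) and the median ratio 2.83. TOPBP1 lay above 88.7% of these genes in its exon share and above 83.4% in its ratio. MCM3 lay above 72.0% of them in exon share and above 18% in ratio. The exon share of MCM2, with 17 overlaps in replicate 2, was not ranked. An excess in bins that hold an exon was therefore common among genes of this length and was not particular to these 5.

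**Figure D2:**
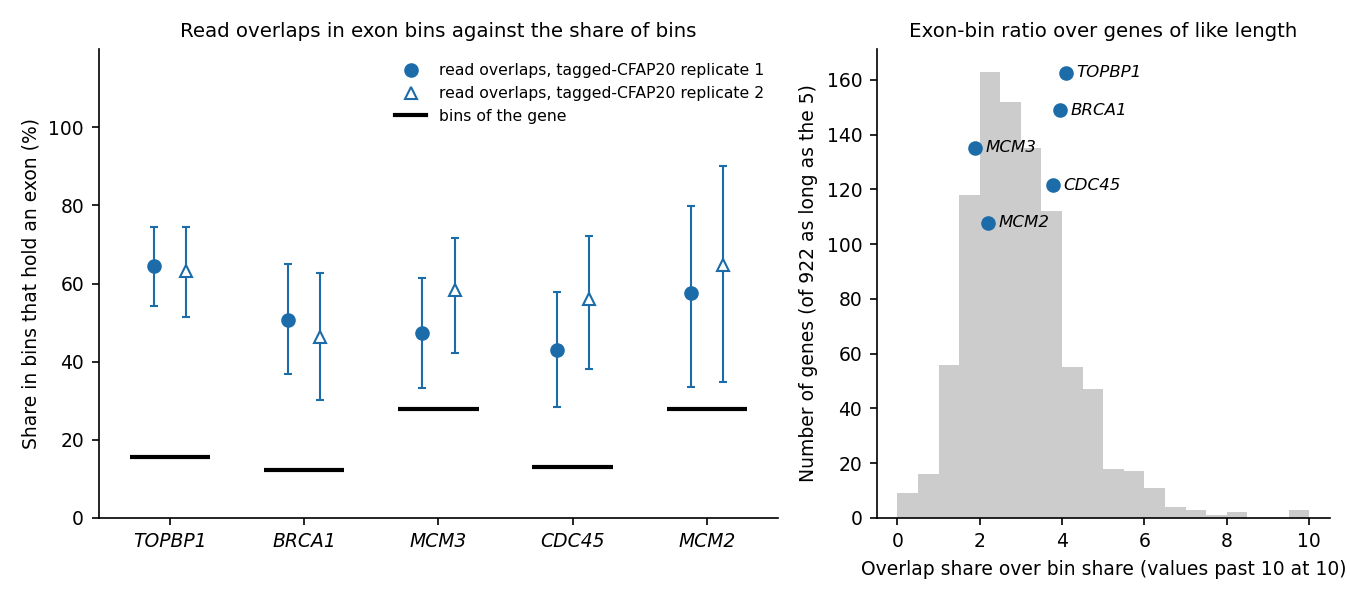
Left, the share of read overlaps in bins that hold an exon (%) for each gene in tagged-CFAP20 replicates 1 and 2, with exact 95% intervals, and black bars for the share of the gene's bins that hold one. Right, the ratio of the 2 shares for the genes of like length in grey and for the 5 genes as blue points at arbitrary heights, where TOPBP1, BRCA1 and CDC45 lie right of the median of 2.83 and MCM2 and MCM3 left of it.

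The reads were scattered over the genes with a few places of repeated cover. In MCM3 the bin printed above, at exon 14, had 11 and 8 overlaps in the tagged-CFAP20 replicates, and the next bin, in intron 14, had 5 and 5. The exon 14 bin had the most signal of any bin of the 5 genes, averaged over both libraries. It took 13.6% ± 1.81 (SD, n = 2) of the gene's overlaps, more than in 93.4% of the genes of like length. MCM3, at 20743 bp, sets the lower end of that range of lengths. The genes it was ranked among were at least as long, and the rank was not adjusted for the number of bins. The third bin of MCM3, with 41 bases of exon 15 and otherwise in intron 15, had 2 and 4. MCM3 also had the closest agreement between libraries: of 42 bins covered in replicate 1 and 40 in replicate 2, 23 were covered in both, and Pearson's r across its 104 bins was 0.69.

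MCM2 had no bin with more than 2 overlaps in a library. Its 3 highest bins were the printed one at exon 14 (1 and 2 overlaps), where a long noncoding RNA gene, ENSG00000285600, is also annotated, a bin over exons 3 and 4 (2 and 1) and a bin within intron 6 (2 and 1). The first 1 kb of MCM2 held no overlap in either tagged-CFAP20 library. Of 22 and 16 covered bins, 8 were shared (r = 0.39 across 122 bins). CDC45 had its highest bins on both sides of exon 5, each with 2 and 6 overlaps, so the peak was clear in replicate 2 and slight in replicate 1. The next bin, at exon 4, had 1 and 2, and the bins wholly within the 10321 bp of intron 5 had 7 and 4 in all. In CDC45, 17 bins were shared of 53 and 36 covered (r = 0.37 across 206 bins).

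TOPBP1 had its highest bins at exon 22, with 6 and 8 overlaps in the printed bin and 4 and 6 in the next, and at exon 7. The bin next to the printed one held 34 exon bases and was otherwise in intron 22. The bin at exon 7 had 6 and 5 overlaps, held 49 exon bases and was otherwise in intron 7. These places fall in separate parts of the gene: when TOPBP1 is divided into 10 equal parts, the second held 25 and 24 overlaps and the eighth 31 and 17, while the last held 4 and 1. Bins that lie wholly within an intron also carried reads, with 1 and 3 overlaps in intron 7 and 6 and 2 in intron 20. Of 70 and 63 covered bins, 28 were shared (r = 0.50 across 307 bins). BRCA1 was the most scattered, with 14 shared bins of 57 and 41 (r = 0.28 across 400 bins). Its printed bin at exon 15 had 2 and 5 overlaps, a bin in exon 10 had 4 and 1, and a bin at exon 14 had 2 and 2. Exon 10, the 3426-bp exon that encodes much of the protein, held 20 and 6 overlaps in all, and intron 16 held 10 and 10. For genes of like length the median r across bins was 0.32. These r values describe bins that share a library and its mapping, and carry no test.

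**Figure D3:**
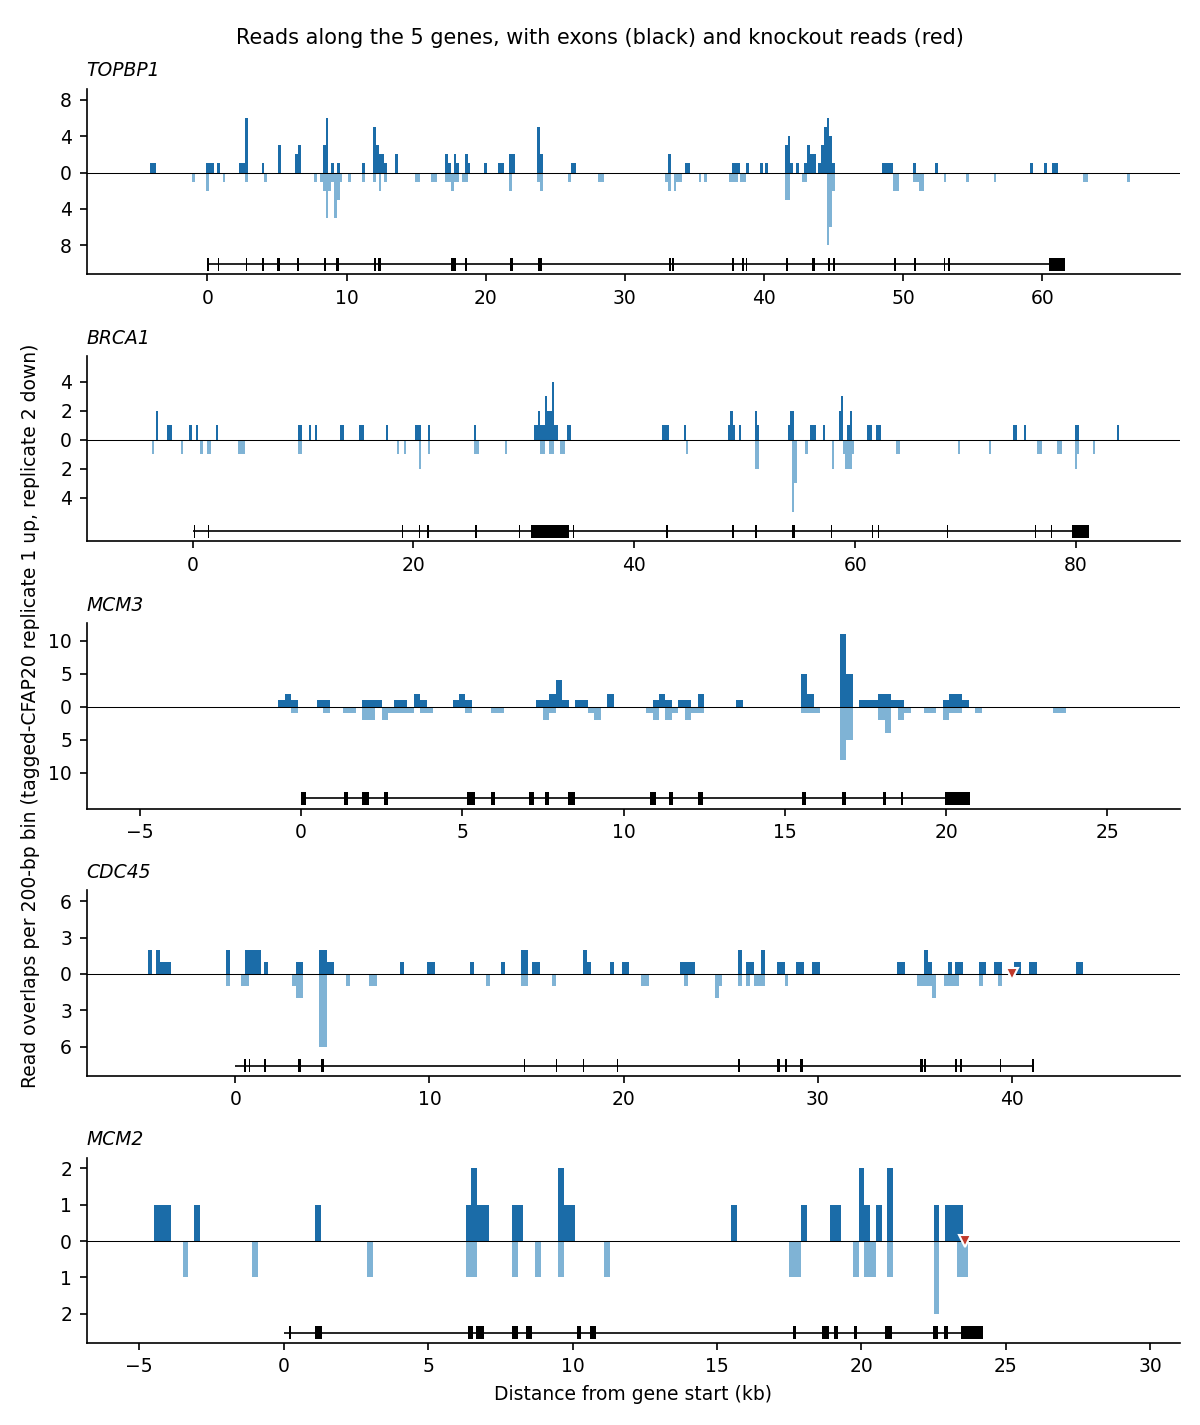
Read overlaps per 200-bp bin (vertical axis) against distance from the gene start (kb) in tagged-CFAP20, replicate 1 drawn upward and replicate 2 downward, with GENCODE exons as black boxes and red triangles for the bins with a CFAP20-KO overlap. The exon 14 bin of MCM3 with 11 and 8 overlaps and the exon 22 bin of TOPBP1 with 6 and 8 are high in both replicates, and CFAP20-KO has 1 overlap each on CDC45 and MCM2.

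The base composition of bins with a read in either tagged-CFAP20 library differed from that of bins with none by a few percent of GC, in either direction. Among bins that hold an exon, those with a read had 53.9% GC in CDC45, 58.6% in MCM2, 38.5% in TOPBP1, 48.7% in MCM3 and 38.6% in BRCA1, and those with none had 47.2%, 55.7%, 34.8%, 51.8% and 41.2%. Only 3 exon bins of CDC45 and 6 of TOPBP1 were without a read. Among intron bins, those with a read had 48.0% GC in CDC45, 47.8% in MCM2, 34.9% in TOPBP1, 40.5% in MCM3 and 41.3% in BRCA1, and those with none had 47.0%, 48.4%, 38.4%, 41.1% and 43.8%. The 8 intron bins of TOPBP1 with reads in both libraries had 31.9%. No test was made of these.

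At the ends of the genes the counts were small. In the 2 kb past the annotated end, tagged-CFAP20 replicates 1 and 2 had 2 and 4 overlaps for BRCA1, 0 and 2 for TOPBP1, 0 and 1 for MCM3, 1 and 0 for CDC45 and 0 and 0 for MCM2. For BRCA1, 2 and 3 of these lay within the last exon of the GENCODE transcript, which runs 1334 bases past the end given in the tables. Per kb, the signal past the end was 193% of that within the gene for BRCA1, above 94.3% of the genes of like length, and 27.5% for TOPBP1, above 52.2% of them. The first 1 kb held 5.08% ± 1.52 of the overlaps of CDC45, 2.51% ± 0.803 of TOPBP1, 2.12% ± 0.823 of MCM3 and 1.61% ± 0.341 of BRCA1 (SD, n = 2 each), and the median over genes of like length was 2.97%. CDC45 lay above 70.2% of them in this share.

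The region from 50 to 2 kb upstream of the gene starts played no part in the choice of the genes, and the contrast there was described apart. Summed over the 5 genes it had 2686 and 2815 units in tagged-CFAP20, against 498 and 830.6 in CFAP20-KO. Both tagged-CFAP20 libraries were above both CFAP20-KO libraries, with means of 2750 ± 90.6 in tagged-CFAP20 and 664.3 ± 235 in CFAP20-KO (SD over 2 libraries each), a ratio of 4.14. The exact two-sided permutation test gave p = 0.3333, the smallest that 6 assignments of 4 libraries allow. This test cannot pass 0.05 with 2 libraries a group and so decides nothing. The ratio was not set beside upstream stretches of other genes. With each library scaled to the same window total the means were 2021 ± 253 in tagged-CFAP20 and 1038 ± 118 in CFAP20-KO, a ratio of 1.95.

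Most of the upstream signal came from stretches that hold other protein-coding genes, and the reads were not assigned to these genes. Upstream of CDC45, where HIRA, C22orf39, MRPL40 and UFD1 lie, tagged-CFAP20 had 92 and 69 overlaps, against 2 and 0 in CFAP20-KO. Upstream of BRCA1 there were 55 and 46, against 1 and 2. This stretch (chr17:43127483-43175483) holds NBR1, but GENCODE extends BRCA1 itself to 43170245, so much of it is annotated as BRCA1. Upstream of MCM2, which holds TPRA1, there were 49 and 71, against 3 and 1. Where no protein-coding gene lies in this stretch, tagged-CFAP20 had 5 and 4 overlaps for TOPBP1 and 8 and 12 for MCM3, and CFAP20-KO had 0 for both genes.

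Other genes had nearly the same levels over the 4 libraries. By Euclidean distance of log2(signal + 10), the nearest to TOPBP1 was NOC3L, at 0.259, and then GLRX3, at 0.278, and 3 genes lay within a distance of 1. JADE1 (0.132) and NDC80 (0.140) were nearest to BRCA1, and XYLB (0.104) and JADE1 (0.150) to MCM3. DDX47 (0.231) and CLCN3 (0.239) were nearest to CDC45, and NAA30 (0.0952) and LINC01583 (0.140) to MCM2. Within a distance of 1 there were 32 genes for BRCA1, 25 for MCM3, 28 for CDC45 and 64 for MCM2. The levels of BRCA1, MCM3, CDC45 and MCM2 are thus shared by many genes of the tables, and those of TOPBP1 by few.

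The wider pathway was read from 5 lists of replication and repair genes with the 5 genes left out. Of 134 list genes, 29 were in the tables and 28 were tested. Limma called 9 of the 28 (32.1%) higher in tagged-CFAP20 and 0 lower, against 37.6% and 0.0672% of all genes tested, and the exact test on the deposited scale called 4 of 28 higher and 0 lower, against 8.26% and 0.0545%. All 9 genes called by limma were at 0 in both CFAP20-KO libraries. They entered the test through tagged-CFAP20 alone and their fitted change follows the added 10 units, so the call shows reads in both tagged-CFAP20 libraries and none in CFAP20-KO, not the size of a difference. With no filter on low values 0 list genes were called, and 2 were called on genes above 0 in at least 3 libraries. In 21 of 28 genes both tagged-CFAP20 libraries were above both CFAP20-KO libraries, where the share over all genes was 69.4%. The median difference was 3.90 on the log2(signal + 10) scale for the list genes and 2.10 for all genes. This scale follows the added 10 units where CFAP20-KO is at 0, and genes of like signal were not compared. When pooled reads were compared relative to the total gene signal of their library, the exact test called 0 of the 28 higher and 0 lower, against 0.109% and 0.245% of 3668 genes. The number called by limma was 0 without either tagged-CFAP20 library, 23 without CFAP20-KO replicate 1 and 22 without CFAP20-KO replicate 2.

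Among the helicase and licensing genes, limma called 3 of 11 higher and 0 lower, against 37.6% and 0.0672% of all genes tested. The 3 were MCM5, a further subunit of the ring, CDC6, which loads it, and MCM10, which helps activate it. They had means of 369, 388 and 348 units in tagged-CFAP20, against 0 in both CFAP20-KO libraries. These 3 thus entered the fit through tagged-CFAP20 alone. The exact test on the deposited scale called 0 of the 11 higher, against 8.26% of all genes it tested. None of the 3 with the most signal averaged over the 4 libraries passed. ORC5, a subunit of the origin recognition complex, had 810 and 850 units in tagged-CFAP20, against 415 and 0 in CFAP20-KO (adjusted p = 0.303 in limma). MCMBP, a partner of MCM subunits, had 616.96 and 794.2, against 249 and 277 (adjusted p = 0.164 in limma). GMNN, the licensing inhibitor geminin, had 257 and 432, against 83.0 and 553.8 (adjusted p = 0.744 in limma), so its groups overlapped.

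Of the fork and nucleotide supply genes limma called 1 of 5 higher, against 37.6% of all genes tested. This was POLE4, a small subunit of DNA polymerase epsilon. Its mean of 134 units in tagged-CFAP20 is under the floor, so its 0 in CFAP20-KO shows no difference. The exact test on the deposited scale called 0 of the 5 higher, against 8.26% of all genes it tested. POLD2 and POLD3 encode subunits of DNA polymerase delta. POLD2 had 771.2 and 557.3 units in tagged-CFAP20, against 166 and 0 in CFAP20-KO (adjusted p = 0.195 in limma). POLD3 had 501 and 362, against 83.0 and 0 (adjusted p = 0.140 in limma), and CHAF1B, of the chromatin assembly factor CAF-1, had 244 and 320, against 83.0 and 0 (adjusted p = 0.185 in limma). In each of these 3 the tagged-CFAP20 libraries were above the CFAP20-KO libraries and the fit did not call the difference.

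TOPBP1 belongs to the ATR checkpoint list, where 2 other genes were tested. HUS1, a subunit of the checkpoint clamp, had 206 and 362 units in tagged-CFAP20, against 0 in both CFAP20-KO libraries, with a fold of at least 1.08. It was called by limma (adjusted p = 0.00722), but not with no filter on low values, and not by the exact binomial test (adjusted p = 0.401). ETAA1, which like TOPBP1 activates ATR, had 1157 and 933.5, against 0 and 277. It missed the threshold in limma (adjusted p = 0.214) and passed the exact binomial test on the deposited scale (adjusted p = 0.00687). That test pools the reads of a group, so its p covers counting error only. On the scale of shares of gene signal its adjusted p was 0.922.

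In homologous recombination, the pathway of BRCA1, limma called 1 of 7 genes higher, against 37.6% of all genes tested. This was the nuclease gene EXO1, with 681.2 and 376 units in tagged-CFAP20 and 0 in both CFAP20-KO libraries. The exact test did not call EXO1. On the deposited scale the exact test called 2 of 7 higher, BRIP1 and UIMC1, against 8.26% of all genes it tested. Relative to shares of gene signal it called 0 of the 7 higher. BRIP1, a helicase that binds BRCA1, had 2455 and 2606 units, from 191 and 187 overlaps, against a CFAP20-KO mean of 498 ± 704.3 (SD, 2 libraries) that came from 12 overlaps in replicate 1 and 0 in replicate 2. The ratio of means was 5.08 (exact test, adjusted p = 0.00202). UIMC1, of the BRCA1-A complex, had 1311 and 1087, against 332 and 0 (exact test, adjusted p = 0.0266). TP53BP1, which opposes BRCA1 in the choice of repair pathway, had 2211 and 1602 units, from 172 and 115 overlaps, against a CFAP20-KO mean of 788.8 ± 59.1 (SD, 2 libraries) from 9 and 3 overlaps. The ratio of means was 2.42, and it passed neither limma (adjusted p = 0.0508) nor the exact test (adjusted p = 0.0572).

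The 3 Fanconi anaemia genes tested were called by limma, with 0 in both CFAP20-KO libraries, and 1 of them by the exact test. Over all genes tested, limma called 37.6% higher and the exact test on the deposited scale 8.26%. Of all genes tested in limma, 40.3% had reads in both tagged-CFAP20 libraries and 0 in both CFAP20-KO libraries. These 3 entered the fit through tagged-CFAP20 alone, and with no filter on low values limma called 0 genes of this list. USP1, a deubiquitinase of the pathway, had 514.1 and 682.7 units in tagged-CFAP20 (adjusted p = 0.00601 in limma and 0.0488 in the exact test). FAAP100, a core complex subunit, had 270 and 376 units (adjusted p = 0.00597 in limma and 0.321 in the exact test). UBE2T, the E2 enzyme of the pathway, had 308 and 237 (adjusted p = 0.00597 in limma and 0.401 in the exact test). The tagged-CFAP20 means of USP1, FAAP100 and UBE2T were 2.27, 1.22 and 1.03 times the floor, so those of FAAP100 and UBE2T are close to the floor itself. Relative to shares of gene signal the exact test called none of USP1, BRIP1 and UIMC1.

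**Figure D4:**
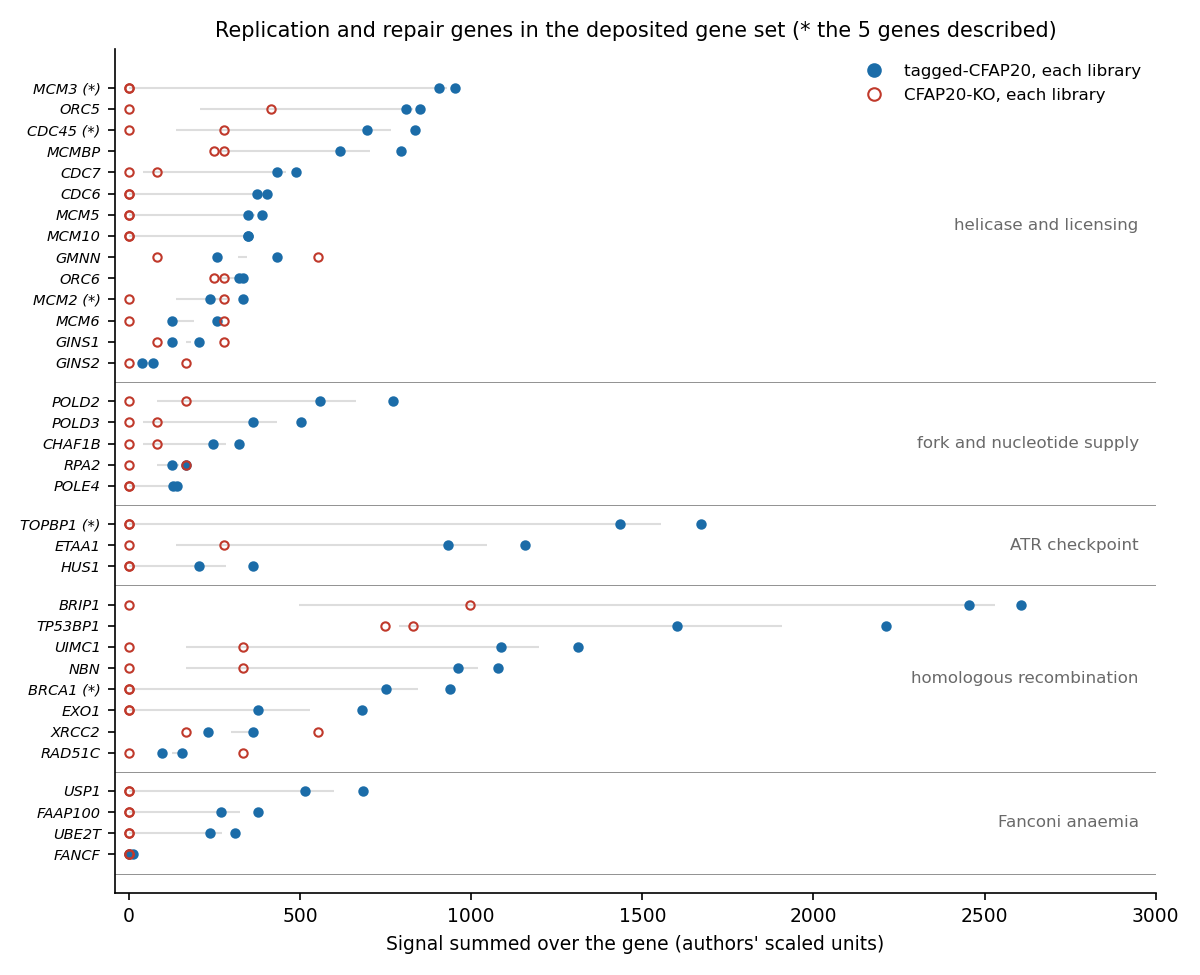
Signal summed over each gene (horizontal axis, the authors' scaled units) for the replication and repair genes in the tables, grouped by list, with filled blue points for the tagged-CFAP20 libraries, open red points for the CFAP20-KO libraries, grey lines between the means and an asterisk for the 5 genes described. TOPBP1 has the largest signal of the genes that are at 0 in both CFAP20-KO libraries, while BRIP1 and TP53BP1 have more in tagged-CFAP20 and reads in CFAP20-KO.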

How the data were processed

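FLASH-seq was run on 2 tagged-CFAP20 and 2 CFAP20-KO libraries, grouped by their labels. The authors deposited 1 table per library of signal in 200-bp bins around gene starts, with further columns of other kinds that describe the gene. The hg38 build, HOMER 4.8.2, Bowtie2 2.3.5, R 4.0.5 and UMI-tools 1.0.0 are named per the submitters' processing notes, without their roles. The normalization is not given in the sources used here, so differences in signal are relative to it. Within a tolerance of 0.01, all values of a library were whole multiples of its step, and of 1444 bins with reads whose place matched within 10 bp in windows of neighbours on opposite strands, 94.7% had equal values, so signal is not split by strand and reads of overlapping genes are mixed. A gene absent from a table was counted as 0, and 587 of 587 such genes that a neighbour's window covers were at 0. Of 9667 identifiers, 9478 matched GENCODE 44, and 1 column that matched no sample was not used.

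Signal was summed from gene start to end, at most 100 kb. Limma 3.58.1 in R 4.3.3 (trend) was run on log2(signal + 10) over 4461 genes with signal in 2 or more libraries, and p-values were adjusted by Benjamini-Hochberg at 0.05. On simulated data limma also called genes made without a change, so its calls are set beside an exact binomial test of pooled overlaps divided by 1.38, on genes with at least 5 reads. Intervals and permutation tests used SciPy 1.17.1. The genes, lists and tests were chosen with earlier results of these data known. Named were the 5 genes, the 3 genes of each list with the most signal, the 2 nearest genes and the 3 highest bins of each gene. MCM5, MCM10, CDC6, POLE4 and EXO1 were named after their values were seen. Alternatives covered the pseudocount, filter, scaling, region, test, replicate block and each library left out.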

Additional observations from a re-analysis of the deposited data

How the results depend on the processing

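With 2 libraries a group and few CFAP20-KO reads, the number of genes called depended on the test. Limma called 1678 genes higher and 3 lower over all genes, and 9 higher and 0 lower on the joined replication and repair lists. With a pseudocount of 1 read in the shallowest library it called 1045 higher and 1 lower. With no filter on low values it called 0 higher and 0 lower over all genes and 0 list genes, and on genes above 0 in at least 3 libraries it called 169 higher, 1 lower and 2 list genes. At the same window total 32 genes were lower, and over the whole 100 kb 5 list genes were higher. The exact test called 303 genes and 4 list genes higher on the deposited scale, and 4 genes higher, 9 lower and 0 list genes on shares of gene signal. Leaving out a library gave 0 to 3256 genes higher and 0 to 418 lower, and 0 to 23 list genes higher and 0 to 1 lower, the lone sample of a group being assumed to vary like the other group. The cause of these shifts was not tested.

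With the replicate block limma called 1874 genes higher and 0 lower, and 9 list genes higher. Deviations of same-numbered libraries had a correlation of 0.0052 over 4461 genes, and the labels do not say that a number marks a shared batch.

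The difference between tagged-CFAP20 and CFAP20-KO in signal summed over the 5 genes, 4102 units, was 2821 at the same window total, 5100 over the whole 100 kb and 2304 in exon bins, and 3750 to 4453 with a library left out. The exon share of 55.9% was 31.9% where an exon had to cover most of the bin, and 54.1% to 57.8% with a library left out. The upstream difference of 2086 units ranged over 1920 to 2252 with a library left out. On shares of gene signal, the log2 change turned to -0.19 for ORC5, -0.073 for MCMBP, -0.62 for GMNN, -0.18 for CHAF1B and -0.067 for TP53BP1. GMNN was also at -0.49 at the same window total, and with a library left out it ranged over -0.71 (without CFAP20-KO replicate 1) to 1.89 (without CFAP20-KO replicate 2). The cause was not tested. At the depth of CFAP20-KO, 0 overlaps on TOPBP1, BRCA1 or MCM3 limits their signal only to 264.0 units.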
